A study of Mus musculus with 19 samples.

Results

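The genes described here are the protein-coding genes whose symbols start with Cfap, Dnah, Dnai, Rsph or Tekt followed by a digit, together with Foxj1. These names cover 34 cilia and flagella associated proteins (Cfap), 15 axonemal dynein heavy chains (Dnah), 4 axonemal dynein intermediate chains (Dnai), 8 radial spoke proteins (Rsph), 5 tektins (Tekt) and 1 transcription factor. They were chosen by name and gene type, a rule that uses no values but was set with earlier results of these data known. They number 67 of the 22901 genes that the deposited comparison tables name. They were measured by RNA sequencing of the striatum of 19 male mice aged 4 months. Every mouse, controls included, was of the D2RCre_floxCas9-EGFP genotype, in which Cre follows the dopamine D2 receptor gene and releases a Cas9 linked to EGFP, and every mouse had a virus injected into the medial prefrontal cortex. Control mice received AAV5 syn-mCherry and knockout mice received AAV5 D2R-sgRNA, a vector with guides against the D2 receptor. All mice were given saline for 5 days, and on day 9 either saline (5 control and 5 knockout mice) or amphetamine at 3 mg/kg (5 control and 4 knockout mice). Tissue was collected 90 min after the amphetamine injection. The knockout was made in prefrontal cortex, so that striatal RNA does not check it, and the cells cut there are limited to those that both express the Cre driver and took up the virus.

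A motile cilium is a whip built on a microtubule skeleton, the axoneme, in which outer doublets surround a central pair. Outer and inner dynein arms on the doublets are the motors, radial spokes relay signals from the central apparatus to the arms, and tektins and other microtubule inner proteins line the doublets from within. FOXJ1 is the transcription factor that switches on the genes of motile cilia, together with factors of the RFX family. In the forebrain the cells that carry tufts of such cilia are the ependymal cells, a single layer that lines the ventricles, borders the striatum and moves cerebrospinal fluid. Sperm tails share most of this machinery, and several of the tektins, dynein chains and spoke proteins named here are best known from the testis.

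The promoters of 3 genes are shown because the members vary together from mouse to mouse and because the RFX half-site recurs among their promoters. Besides that of Tekt1, these are the promoters of the members most like Foxj1 (described further on) among those that hold the half-site. Each is the RefSeq window of 300 bases from 250 bases before to 50 after the annotated start, given 5′ to 3′ on the gene's own strand in the build GRCm38.p6, with the half-site GTTGCC or its reverse complement GGCAAC in capitals. Where the half-site lies within the longer site GTTGCCATG or its reverse complement CATGGCAAC, all 9 bases are in capitals.
Tekt1, chr11:72361833-72362132, minus strand: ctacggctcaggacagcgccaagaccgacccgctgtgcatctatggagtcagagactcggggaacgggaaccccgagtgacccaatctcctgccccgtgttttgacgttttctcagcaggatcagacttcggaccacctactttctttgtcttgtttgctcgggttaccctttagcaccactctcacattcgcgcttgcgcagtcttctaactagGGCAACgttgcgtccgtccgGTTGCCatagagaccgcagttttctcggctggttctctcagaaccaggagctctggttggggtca
Cfap97d2, chr8:13705639-13705938, plus strand: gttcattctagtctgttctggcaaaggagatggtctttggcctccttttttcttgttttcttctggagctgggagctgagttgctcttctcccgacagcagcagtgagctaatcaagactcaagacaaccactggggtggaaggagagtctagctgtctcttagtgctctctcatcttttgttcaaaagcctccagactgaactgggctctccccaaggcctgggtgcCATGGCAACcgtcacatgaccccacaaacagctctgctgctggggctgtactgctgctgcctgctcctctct
Cfap161, chr7:83794790-83795089, minus strand: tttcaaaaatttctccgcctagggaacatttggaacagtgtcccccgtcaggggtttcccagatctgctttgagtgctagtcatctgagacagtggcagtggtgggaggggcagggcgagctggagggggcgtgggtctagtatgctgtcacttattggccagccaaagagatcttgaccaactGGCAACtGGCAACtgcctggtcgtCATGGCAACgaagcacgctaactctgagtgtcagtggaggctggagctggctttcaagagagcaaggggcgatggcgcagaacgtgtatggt

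Tekt1 holds 2 half-sites, on opposite strands within 35 bases before the start. Cfap161 holds 3 half-sites in a row within 66 bases before the start, the last of them part of the longer site, and Cfap97d2 holds 1, also part of the longer site. Among the 50 of 67 members with a RefSeq promoter under the same symbol, 19 (38%) had GTTGCC on either strand, against 14.1% of all 27025 genes with such windows. The longer GTTGCCATG, which contains the half-site, was in 3 member promoters (Cfap161, Cfap74 and Cfap97d2, 6%) and in 0.877% of all genes. TGTTTAC, the core recognised by forkhead factors such as FOXJ1, was in 4 (Cfap20, Cfap43, Dnah17 and Tekt3, 8%) and in 4.05% of all genes. A match of letters is a description of these windows and shows no binding. The half-site did not mark the members that followed Foxj1 most closely: it was in 5 of the 18 matched members with a correlation to Foxj1 of 0.5 or more (described further on) and in 14 of the 32 with a lower one.

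Library totals ran from 57003408 to 85536346 counts. Levels are given as CPM, the counts of a gene relative to all counts of its library after TMM scaling, and tests are those of edgeR's quasi-likelihood model with Benjamini-Hochberg adjustment over 21513 genes. The labels give each library as 1 mouse. The libraries of amphetamine control mouse 3, amphetamine knockout mice 2 and 3, saline knockout mouse 3 and saline control mouse 5 stand apart from the rest on the first 4 principal components, and the member medians are given with and without these 5. Whether fewer ependymal cells in the sample or less RNA per cell lies behind a lower value cannot be told apart in bulk tissue.

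All 67 genes were detected and passed the filter on low counts. Compared per length, as the authors' FPKM (fragments relative to gene length and library size), the members had a median level of 0.832 against 3.12 for all genes tested, and 40 of the 67 were below 1 FPKM. The highest were Cfap36 (70.6 FPKM), which binds the ciliary GTPase ARL3, Cfap298 (18.9), an assembly factor of dynein arms, Rsph9 (13.3), a spoke head protein, and Cfap20 (11.7), a protein of the doublet's inner junction. Foxj1 stood at 4.25 FPKM and Tekt1 at 1.73 FPKM. The lowest were Dnah17 (0.0326 FPKM) and Dnah8 (0.0360 FPKM), outer arm heavy chains of sperm tails, and Tekt3 (0.0501 FPKM), a sperm tektin, which had between 0 and 21 counts in a library. On the CPM scale 16 members exceeded 10, 37 lay between 1 and 10 and 14 were below 1, so the long dynein genes rest on more counts than their FPKM implies. Other markers of ependymal cells ran from 0.526 FPKM (Hdc) to 13.4 FPKM (Vim, which other glia also express). Among them Ccdc153 stood at 7.09 FPKM, Rarres2 at 4.00 FPKM, Tmem212 at 3.05 FPKM and Fam216b at 0.878 FPKM.

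Some of these levels may be shared with other transcripts. In the deposited coordinates 27 members overlap another gene and 14 overlap a protein-coding one; Gnaz covers 66.2% of Rsph14, and Mrps18a covers 31.0% of Rsph9. No source used here states the strand setting of the counting, and reads of such pairs cannot be assigned with certainty. Dnah7a, Dnah7b and Dnah7c, and likewise Rsph3a and Rsph3b, are near-identical copies whose split of reads is uncertain.

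Foxj1 (ENSMUSG00000034227.8, chromosome 11, 116221530 to 116226225 in GRCm39) was measured at 13.3, 15.3, 10.7, 13.0 and 9.83 CPM in the saline control mice. After amphetamine the control mice had 8.32, 8.65, 4.69, 10.8 and 10.6 CPM. Saline knockout mice had 10.4, 13.9, 13.3, 14.7 and 9.999 CPM, and amphetamine knockout mice 9.8, 14.6, 9.96 and 9.81 CPM. Amphetamine control mouse 3 was the lowest of all 19, and the 4 groups overlap. The means were 12.4 ± 2.18 (SD, n = 5), 8.62 ± 2.47 (n = 5), 12.4 ± 2.12 (n = 5) and 11.1 ± 2.39 CPM (n = 4) in the same order. The log2 fold change of amphetamine against saline was -0.53 ± 0.188 (SE, adjusted p = 0.281 by edgeR) in control mice and -0.17 in knockout mice, and neither was called. Without amphetamine knockout mouse 2 the knockout value was -0.34.

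Tekt1 (ENSMUSG00000020799.17, chromosome 11, 72235548 to 72253268), a tektin filament protein inside the doublet, stood at 3.14, 2.6, 2.50, 3.08 and 3.17 CPM in saline control mice. Amphetamine control mice had 1.62, 1.25, 0.978, 1.55 and 1.96 CPM. The saline knockout mice had 2.56, 2.72, 3.39, 3.63 and 2.28 CPM and the amphetamine knockout mice 2.28, 3.84, 3.07 and 1.86 CPM. Every amphetamine control mouse was below every saline control and every saline knockout mouse, while the 2 knockout groups overlapped. The log2 fold change in control mice was -0.97 ± 0.204 (SE, adjusted p = 0.124 by edgeR), which did not pass the test. It was -0.08 in knockout mice.

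**Figure D1:**
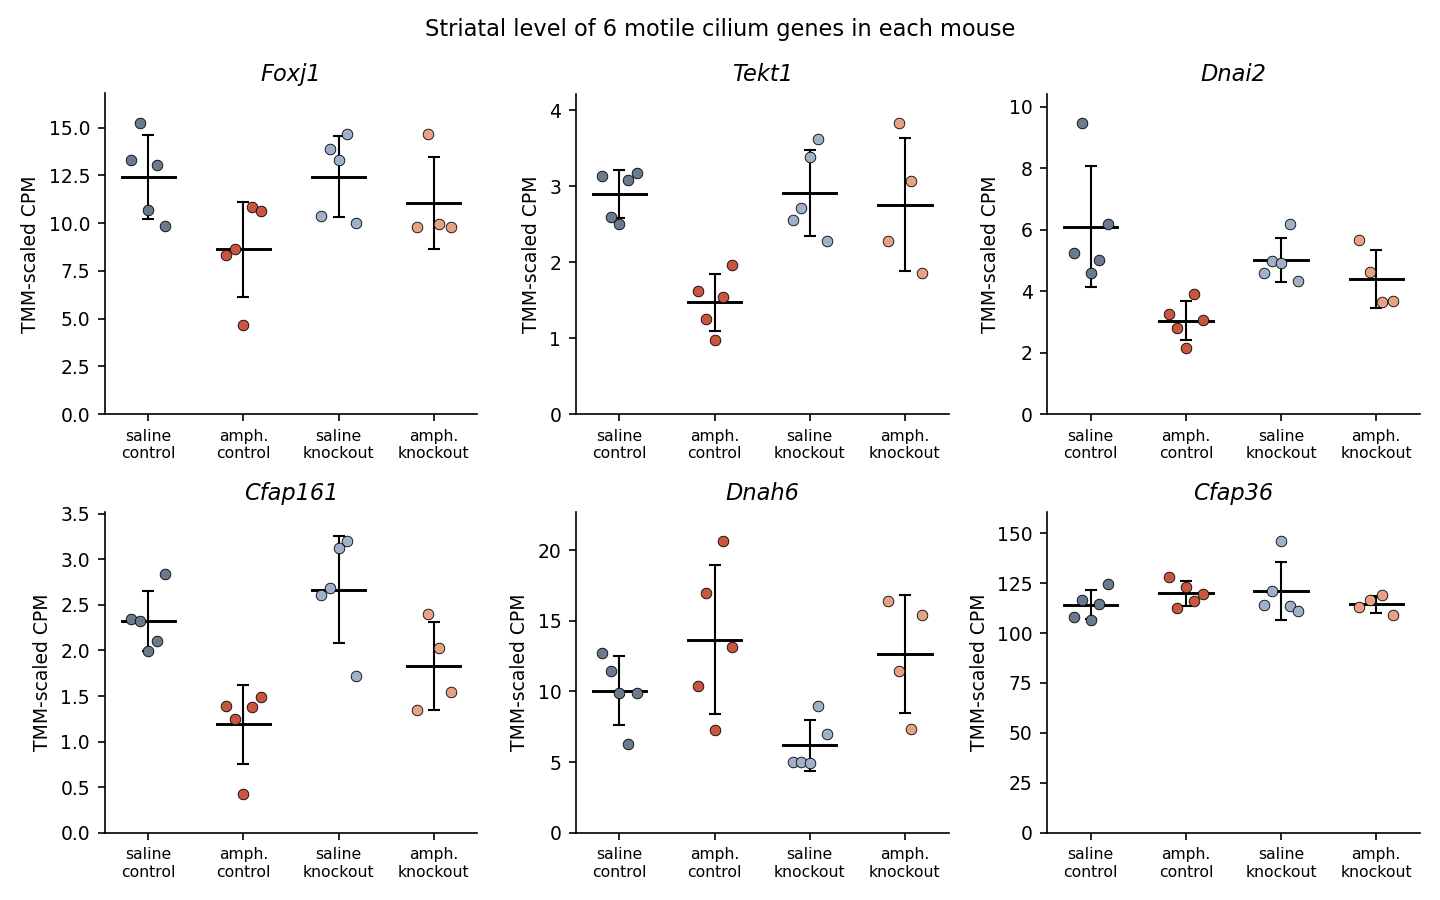
TMM-scaled CPM of 6 members in each of the 19 mice, by group; points are mice, horizontal lines group means and whiskers SD. Foxj1, Tekt1, Dnai2 and Cfap161 have their lowest group mean in amphetamine control mice (8.62, 1.47, 3.04 and 1.19 CPM), Dnah6 is lowest in saline knockout mice, and Cfap36 lies between 107 and 146 CPM throughout.

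The first comparison asks what amphetamine does to these genes in mice with an intact prefrontal D2 receptor. Most members were lower after amphetamine than after saline: 56 of 67 had a log2 fold change below 0, and the median was -0.49, where all genes tested had a median of -0.01 and 51.6% below 0. No member passed the test by edgeR, which called 0.00465% of all genes. At an unadjusted p under 0.05, 32 members were lower and 1 was higher, against 6.95% and 4.89% of all genes tested. The 5 mice of each group did not overlap for 13 members, all of them lower (Cfap126, Cfap161, Cfap44, Cfap45, Cfap65, Cfap70, Dnah10, Dnah7b, Dnah9, Dnai2, Dnai3, Rsph4a and Tekt1), where 1.68% of all genes were lower and 2.22% higher without overlap. How firmly single genes are called rests on the tool and on the libraries fitted. DESeq2 called 5 members lower (Dnai2, Tekt1, Cfap161, Cfap70 and Cfap46) and 0.979% of all genes, limma voom called no member and 0.00465% of all genes, and edgeR on the 2 groups alone called Tekt1 and Dnah7b (0.374% of all genes). The authors' deposited table, from a DESeq2 fit of their own, called 19 members, all lower, and 4.21% of all genes.

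Among the outer dynein arm genes, the motors that set the beat frequency, 6 of 7 were below 0 with a median of -0.39. Dnai2 (ENSMUSG00000034706.17, chromosome 11, 114618234 to 114648715), an intermediate chain that anchors the arm, had the smallest p of all members. It stood at 5.24, 9.48, 4.59, 5.03 and 6.17 CPM in saline control and at 3.26, 2.82, 2.16, 3.92 and 3.06 CPM in amphetamine control mice. The 2 groups did not overlap, and saline control mouse 2 lay well above the other mice. Saline knockout mice had 4.58, 4.98, 4.93, 6.19 and 4.33 CPM and amphetamine knockout mice 5.66, 4.62, 3.66 and 3.67 CPM, so that all knockout mice but 2 lay above all amphetamine control mice. The log2 fold change in control mice was -1.0 ± 0.194 (SE, adjusted p = 0.117 by edgeR). The authors' deposited table gives -1.0 with an adjusted p of 0.000370. Of the heavy chains, Dnah11 had a value of -0.75, Dnah9 of -0.50, Dnah8 of -0.36, Dnah5 of -0.32 and the sperm chain Dnah17 of 0.03. For Dnah11, saline control mouse 2 stood at 7.69 CPM and the rest of that group at 2.19 to 3.10 CPM. The Dnah11 medians in control mice were 2.36 CPM after saline and 1.78 CPM after amphetamine. The other intermediate chain, Dnai1, had -0.39.

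Inner dynein arm genes, whose motors shape the bend, were below 0 for 11 of 12 with a median of -0.50. Dnai3, an intermediate chain of 1 inner arm, had the lowest value at -1.15, followed by the heavy chains Dnah10 (-0.94), Dnah12 (-0.86) and Dnah3 (-0.68). The heavy chains Dnah7b, Dnah7a, Dnah14, Dnah7c and Dnah2 had -0.58, -0.50, -0.49, -0.40 and -0.37. Dnah1 (ENSMUSG00000019027.9, chromosome 14, 30982332 to 31045853), the most abundant heavy chain in CPM, had 17.2, 13.2, 21.3, 20.6 and 13.6 CPM in saline control and 12.5, 12.1, 9.92, 13.5 and 13.2 CPM in amphetamine control mice. Knockout mice had 18.5, 16.6, 18, 22.4 and 18.5 CPM after saline and 15.4, 17.3, 17.6 and 12.5 CPM after amphetamine. The control groups overlapped slightly, at saline mouse 2 and amphetamine mouse 4, and the log2 fold change was -0.49 ± 0.135 (SE, adjusted p = 0.183 by edgeR). Dnai4 (ENSMUSG00000035126.20, chromosome 4, 102895262 to 102971752), an intermediate chain, ran from 8.70 to 17.1 CPM in saline control and from 11.8 to 13.0 CPM in amphetamine control mice, a log2 fold change of -0.21. The exception in this role was Dnah6, at 0.45. The 5 genes that tether and regulate the inner arms (Cfap43, Cfap44, Cfap57, Cfap73 and Cfap100) were all below 0, with values from -0.79 to -0.43.

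Radial spoke genes were below 0 for 10 of 11 with a median of -0.35. Rsph9 (ENSMUSG00000023966.9, chromosome 17, 46432961 to 46455142) stood at 11.4, 12.4, 13.4, 13.7 and 14.0 CPM in saline control and at 11.8, 10.2, 9.02, 9.64 and 9.05 CPM in amphetamine control mice, with overlap only through amphetamine mouse 1. Its log2 fold change was -0.39 ± 0.172 (SE, adjusted p = 0.386 by edgeR). The knockout mice ran from 11.5 to 20.4 CPM after saline and from 9.45 to 19.2 CPM after amphetamine, a wider spread. The spoke head genes Rsph4a and Rsph1 had -0.65 and -0.55, the stalk genes Rsph3a and Rsph3b -0.20 and -0.14, and Rsph14 and Rsph10b -0.87 and -0.22. Rsph6a, a spoke protein of sperm with a mean of 0.288 CPM, was the highest of all members at 0.99 ± 0.342 (SE, adjusted p = 0.259 by edgeR). Central apparatus genes were mixed, with 5 of 8 below 0 and a median of -0.15: Cfap46 and Cfap65 had -0.83 and -0.53, Cfap54 and Cfap69 -0.21 and -0.15, while Cfap74 had 0.11 and Cfap99 0.27.

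The microtubule inner proteins had the lowest median of the roles with more than 1 gene, at -0.82, and 11 of 12 were below 0. Besides Tekt1 these included Tekt2 (-0.86), Tekt4 (-0.80) and Cfap126 (-0.81). For Tekt4, saline control mouse 5 stood at 2.92 CPM and the rest of that group at 0.951 to 1.34 CPM. The Tekt4 medians in control mice were 1.12 CPM after saline and 0.895 CPM after amphetamine. Cfap161 (ENSMUSG00000011154.18, chromosome 7, 83423309 to 83444088) had 2.34, 2.32, 2.00, 2.10 and 2.84 CPM in saline control and 1.39, 1.25, 0.428, 1.38 and 1.49 CPM in amphetamine control mice, with no overlap. Knockout mice had 2.61, 2.69, 3.12, 3.20 and 1.72 CPM after saline and 1.34, 2.41, 2.02 and 1.54 CPM after amphetamine, and here the drug groups overlapped. The log2 fold change was -0.96 ± 0.253 (SE, adjusted p = 0.173 by edgeR) in control and -0.55 in knockout mice. Tekt5 (ENSMUSG00000039179.14, chromosome 16, 10175812 to 10213354), a tektin known from sperm, had 13.1, 12.8, 13.3, 15.5 and 15.9 CPM in saline control and 13.3, 15.7, 18.2, 14.5 and 13.3 CPM in amphetamine control mice, a difference of 0.08. Cfap20 had -0.05.

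The dynein assembly factors and the members of other roles include Cfap36, the most abundant member on both scales. Cfap36 (ENSMUSG00000020462.15, chromosome 11, 29171532 to 29197409) had 108, 117, 107, 115 and 124 CPM in saline control and 128, 113, 123, 116 and 119 CPM in amphetamine control mice. Saline knockout mice had 114, 121, 146, 113 and 111 CPM and amphetamine knockout mice 113, 116, 119 and 109 CPM. Only saline knockout mouse 3 left the common range, and the log2 fold change in control mice was 0.07 ± 0.0727 (SE, adjusted p = 0.767 by edgeR). The dynein assembly factors Cfap298 and Cfap300 had 0.02 and -0.19. Of 9 members with other or less certain roles, 6 were below 0, from Cfap70 at -0.77 to Cfap20dc at 0.15, with the abundant Cfap410 and Cfap97 at -0.08 and 0.03.

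**Figure D2:**
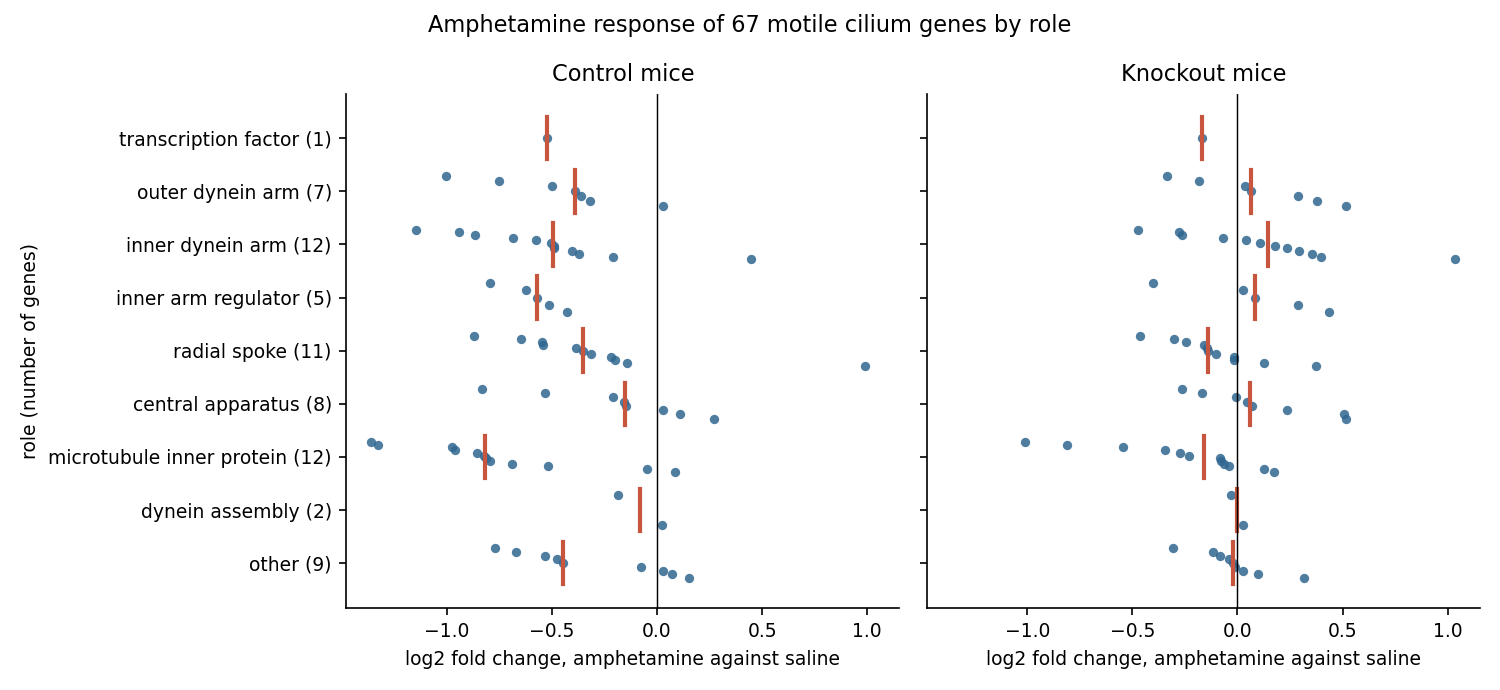
Log2 fold change of amphetamine against saline for the 67 members (points), grouped by role, in control mice (left) and knockout mice (right); red lines are medians of a role. In control mice the medians run from -0.82 for microtubule inner proteins to -0.08 for dynein assembly factors, and in knockout mice from -0.17 for Foxj1 to 0.14 for inner dynein arms.

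Amphetamine control mouse 3 lay lowest for many members. The mean log2 CPM over all members was 0.876 in this mouse and between 1.44 and 1.61 in the other 4 of its group, against 1.79 to 1.96 in saline control mice. Without it the median log2 fold change was -0.37, and it was -0.38 with 55 of 67 below 0 when all 5 libraries that stand apart were left out. In that fit edgeR called Dnah7b lower and 0.177% of all genes. Amphetamine control mouse 3 also had the lowest summed level of pallidal and septal neuron markers in its group (206 CPM, the others from 331 to 397) and the highest of cortical neuron markers (1316 CPM, the others from 629 to 1086).

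In knockout mice given the same drug the members were centred on 0. The median log2 fold change was -0.02, with 37 members below 0 and 30 above, and all genes tested had a median of -0.01. edgeR called no member and 0.00465% of all genes, with 1 member lower and 6 higher at an unadjusted p under 0.05 against 6% and 6.09% of all genes. Groups did not overlap for 2 members, Cfap74 and Rsph10b, both higher after amphetamine, and for none that was lower, against 2.22% and 2.84% of all genes. The microtubule inner proteins had a median of -0.16 and the radial spoke genes of -0.14, while inner dynein arm genes had a median of 0.14. Besides Dnah6, described next, the smallest p belonged to the central apparatus genes Cfap54 (0.51 ± 0.175 SE, adjusted p = 0.291 by edgeR) and Cfap74 (0.24 ± 0.0856, adjusted p = 0.303). Without amphetamine knockout mouse 3 the Cfap54 value was 0.33. The 4 amphetamine mice differed widely: the mean log2 CPM over members was 2.04 and 2.02 in mice 2 and 3 and 1.72 and 1.54 in mice 1 and 4. Mouse 2 had 739 CPM of summed choroid plexus markers, led by the thyroxine carrier gene Ttr, where the other 3 had 54.7 to 63.1, and their part in the result was not tested. Without the 5 libraries that stand apart, which include both of these mice, the median was -0.27 with 56 of 67 members below 0.

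Dnah6 (ENSMUSG00000052861.14, chromosome 6, 72994589 to 73198634), an inner arm heavy chain, differed from the other members. Saline knockout mice had 4.99, 5.04, 4.90, 8.99 and 6.97 CPM and amphetamine knockout mice 16.4, 11.5, 7.31 and 15.4 CPM. Saline control mice had 12.7, 11.4, 9.92, 6.26 and 9.92 CPM and amphetamine control mice 10.4, 17.0, 7.26, 20.6 and 13.1 CPM. Saline knockout mice were the lowest group, and of the 4 amphetamine knockout mice only mouse 3 lay within their range. The amphetamine log2 fold change in knockout mice was 1.03 ± 0.285 (SE, adjusted p = 0.278 by edgeR). DESeq2 called it higher (adjusted p = 0.0429), the only member it called, with 0.511% of all genes, and so did the authors' deposited table (1.04, adjusted p = 0.0168), which called 0.665% of all genes. In control mice Dnah6 had a value of 0.45 and under saline the knockout against control value was -0.70 (adjusted p = 0.614 by edgeR).

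The third comparison sets knockout against control mice under saline, where no drug was given. The members were centred near 0, with a median of 0.05, 30 below and 37 above 0, and without the 5 libraries that stand apart with a median of 0.02, 29 below and 38 above. No member and 0% of all genes were called by edgeR, DESeq2 called no member and 0.00931% of all genes, and the authors' deposited table called no member and 0.00439% of all genes. At an unadjusted p under 0.05, 4 members were lower and 1 was higher, against 4.15% and 3.79% of all genes. The groups overlapped for all 67 members, while they did not for 0.4% of all genes that were lower and 0.511% that were higher. The smallest p belonged to Rsph6a (1.05), Dnah6 and the outer arm chain Dnah11 (-0.85 ± 0.357 SE, adjusted p = 0.614 by edgeR). The Dnah11 value rests largely on saline control mouse 2, at 7.69 CPM. Its medians were 2.36 CPM in saline control and 2.01 CPM in saline knockout mice.

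Beneath the median over all members the dynein heavy chains and the other members were split. The 15 Dnah genes had a median of -0.26 with 13 below 0, and the 52 other members a median of 0.07 with 17 below 0. The Dnah genes are also the longest members, from 12.1 to 16.7 kb by the length that the deposited FPKM imply, where the other members had a median of 2.78 kb and a maximum of 9.91 kb. In saline knockout mouse 3 members were lower the longer they were, with a Spearman rho of -0.728 across the 67 genes between length and deviation from the mean of all mice. Over all 21513 genes tested rho was -0.486 in that library, and in the other 18 libraries it ran from -0.0855 to 0.185. Genes of 1 library are not independent replicates, and these are descriptions. In that mouse the Dnah genes had a median deviation of -0.76 and the other members of 0.20, and Rsph9 (20.4 CPM) and Cfap36 (146 CPM) were the highest of their group. Without it the Dnah median was -0.13 with 10 of 15 below 0, and the median of the others 0.05. Leaving it out also brought the Dnah median in the amphetamine comparison of knockout mice from 0.23 to 0.02.

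**Figure D3:**
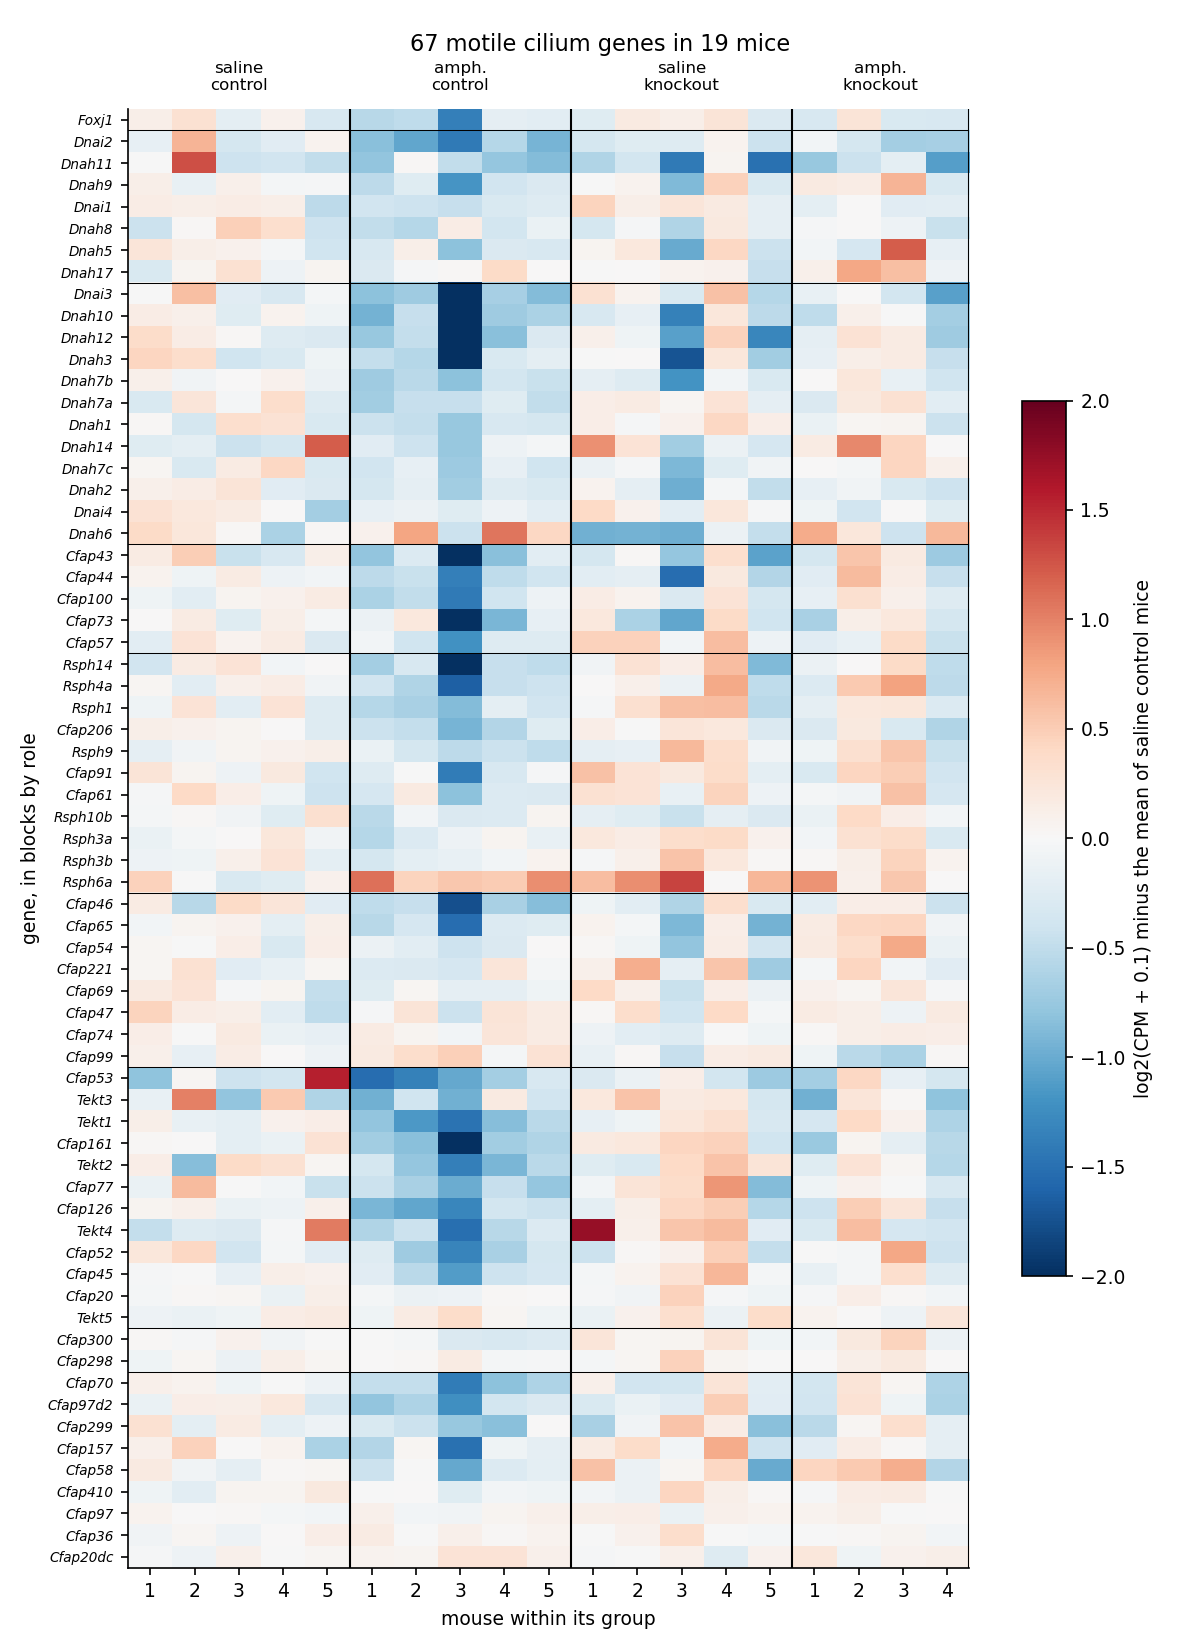
Heat map of log2(CPM + 0.1) minus the mean of saline control mice, for 67 members (rows, in blocks by role) in 19 mice (columns, by group). Blue is lower and red higher, with colours saturating at 2 log2 units. The amphetamine control columns are mostly blue and bluest in mouse 3, and saline knockout mouse 3 is blue for most Dnah genes and red for short genes such as Rsph9.

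The fourth comparison, knockout against control mice after amphetamine, shares its 5 control mice with the first. Members were higher in knockout mice for 59 of 67, with a median log2 fold change of 0.45 where all genes had 0.00. Markers of other cells differed in the same mice: striatal projection neuron markers were lower in knockout mice for 14 of 14 (median -0.79), with summed levels of 4717 to 6086 CPM in control and 1607 to 4590 CPM in knockout mice, which do not overlap. Drd2, the D2 receptor gene, had -1.02 ± 0.276 (SE, adjusted p = 0.223 by edgeR), and none of the list was called. Pallidal and septal neuron markers were higher for 10 of 11 (median 0.41), and choroid plexus markers for 13 of 13 (median 1.37), with amphetamine knockout mouse 2 at 739 CPM. The part of these lists in the cilium gene result was not tested. No member and 0% of all genes were called by edgeR. At an unadjusted p under 0.05, 31 members were higher and 1 lower, against 7.44% and 5.34% of all genes. The groups did not overlap for 6 members that were higher (Cfap46, Cfap65, Cfap77, Dnah14, Dnah7c and Dnai1) and for none that was lower, against 3.08% and 3.71% of all genes. DESeq2 called Tekt1 higher (0.90, adjusted p = 0.0232) and 0.535% of all genes. Tekt1 had 0.90 ± 0.214 (SE, adjusted p = 0.220 by edgeR), Cfap126, a protein inside the doublet, 0.84 ± 0.252 (adjusted p = 0.225), and Cfap65, a central pair protein, 0.78 ± 0.242 (adjusted p = 0.227). Cfap126 stood at 1.59, 3.08, 2.55 and 1.54 CPM in the knockout and 1.09, 0.998, 0.810, 1.64 and 1.56 CPM in the control mice. Knockout mice 2 and 3 were well above the control mice, and mice 1 and 4 lay within or close to their range. The median depends on those libraries: without the 5 that stand apart it was 0.09, with 48 of 67 above 0.

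Whether amphetamine acted differently in the 2 genotypes was tested directly, as an interaction. It was above 0 for 56 of 67 members, with a median of 0.43 against 0.01 for all genes tested. No member was called by edgeR (0% of all genes), DESeq2 called none and 0.0846% of all genes, and 17 members were higher and 2 lower at an unadjusted p under 0.05, against 5.2% and 4.05% of all genes. The smallest p belonged to Dnah7b at 0.87 ± 0.237 (SE, adjusted p = 0.519 by edgeR), Cfap65 at 1.05 ± 0.333 and Tekt1 at 0.90 ± 0.292. Dnah7b, an inner arm heavy chain, had 9.83, 8.67, 9.14, 9.68 and 8.46 CPM in saline control mice and 5.55, 6.29, 5.11, 7.09 and 6.67 CPM in amphetamine control mice. In knockout mice it had 8.02, 7.62, 3.94, 8.80 and 7.38 CPM after saline and 9.14, 10.7, 8.26 and 6.90 CPM after amphetamine. The control groups were apart, the knockout groups overlapped, and saline knockout mouse 3 was lowest. Without the 5 libraries that stand apart the median difference was 0.10, with 45 of 67 above 0. This comparison uses the mice of the other 4, so its values and theirs are not separate evidence.

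Foxj1 served as the reference for which members vary together. For each gene the deviations from its group means were correlated with those of Foxj1 over the 19 libraries. This removes mean differences between the groups, but an uneven response of mice within a group still enters. Within a library all genes share the tissue sample and depth. The 66 other members had a median Pearson r of 0.418 against 0.001 for all genes tested, and 27 of 66 (40.9%) reached 0.5 where 3.04% of all genes did. The 5 members most like Foxj1 were Cfap157 (r = 0.85), a protein of the basal body, Cfap97d2 (0.81), Cfap43 (0.79), Cfap161 (0.78) and Cfap126 (0.76). The least alike were Cfap20dc (-0.54), Tekt5 (-0.50), Cfap99 (-0.40), Dnah8 (-0.09) and Cfap298 (-0.04). Foxj1 and Tekt1 had a Pearson r of 0.692 (p = 0.00088, permutation test, two-sided, n = 19) and a Spearman rho of 0.640 (p = 0.00402). Without amphetamine control mouse 3 and saline control mouse 2, the libraries farthest from the Foxj1 median, r was 0.685 (permutation p = 0.00268, n = 17) and rho 0.586 (p = 0.0155). With those 2 left out 15 of 66 members (22.7%) and 4.6% of all genes reached 0.5, and 13 of the 15 were among the 27. The permutations shuffled deviations over all libraries without regard to the group means removed, so these p-values may be too small. The pair of Foxj1 and Tekt1 was the only relation tested in this way.

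Members grouped by likeness to Foxj1 also differed in their amphetamine value in control mice, but the 2 measures come from the same libraries, and amphetamine control mouse 3 is lowest both for Foxj1 and for the mean of the members. Members with r of 0.5 or more had a median log2 fold change of -0.68 with 26 of 27 below 0, those from 0.2 to 0.5 a median of -0.39 with 20 of 24, and those under 0.2 a median of -0.15 with 9 of 15. Over all genes tested, members included, the 655 with r of 0.5 or more had a median of -0.40 with 83.2% below 0. With that mouse left out of both the correlation and the fold change, 13 of 66 members (19.7%) reached 0.5, 11 of them among the 27. Their median was then -0.55 with 13 of 13 below 0, against -0.41 with 27 of 30 for r from 0.2 to 0.5 and -0.21 with 16 of 23 for r under 0.2. Over all genes with r of 0.5 or more the median without it was -0.11 with 69.9% below 0. In knockout mice the 27 members of 0.5 or more in all libraries had a median of -0.11. Members under 0.2 were also more abundant, with a median of 2.61 FPKM against 0.551 FPKM. Likeness gives no support to the ependymal label for Tekt5 (8.20 FPKM), Cfap20dc (6.16 FPKM), Cfap298 and Cfap36, whose r lay between -0.54 and 0.01.

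**Figure D4:**
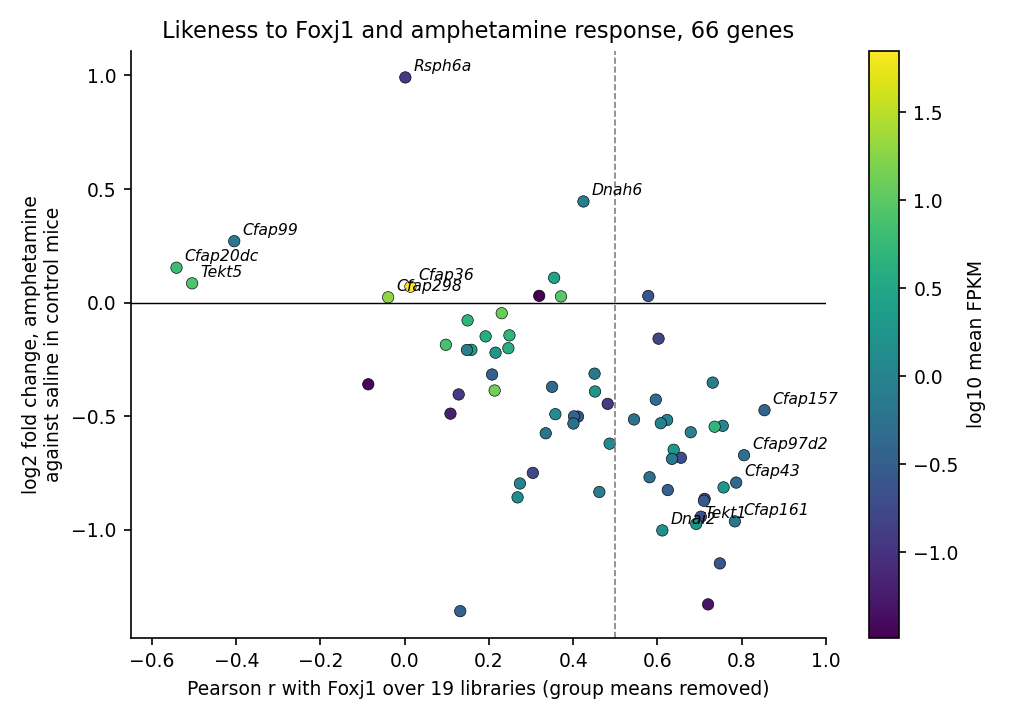
Each point is 1 of 66 members: x, Pearson r with Foxj1 over 19 libraries after removing group means; y, log2 fold change of amphetamine against saline in control mice; colour, log10 mean FPKM; the dashed line marks r of 0.5. Members to the right of it have a median of -0.68 with 26 of 27 below 0, and Tekt5, Cfap20dc and Cfap99 lie far left and above 0.

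Other genes of motile cilia outside the naming rule were taken from 7 lists: regulators, dynein assembly factors, docking and ruler proteins, the nexin link, further central apparatus proteins, light chains and inner proteins. Of 75 listed 67 were tested, and none was called by edgeR in any comparison. In control mice 52 of 67 were below 0 after amphetamine with a median of -0.21. Docking and ruler genes, which place the outer arms, were below 0 for 7 of 7 with a median of -0.56, and central apparatus genes for 10 of 10 with -0.38. The smallest p belonged to Odad1, a docking complex gene, at -0.68 ± 0.171 (SE, adjusted p = 0.170 by edgeR), Dnali1, an inner arm light chain, at -0.87 ± 0.256, and Trp73, a regulator of multiciliated cells, at -0.57 ± 0.177. In knockout mice the median was -0.04, and knockout against control after amphetamine it was 0.20 with 50 of 67 above 0.

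The regulators had values of both signs: 6 of 12 were below 0 in control mice after amphetamine. Deup1, which builds the centrioles of multiciliated cells, had -0.93 and the RFX factor gene Rfx2 -0.31. Mcidas, Gmnc and Ccno, which start the multiciliated programme in precursor cells, had 0.57, 0.55 and 0.50. Mcidas and Gmnc were barely detected, with means of 0.222 and 0.115 FPKM. Ccno ran at 4.68 ± 0.624 CPM (SD, n = 5) in amphetamine control and 2.77 ± 0.439 CPM (n = 4) in amphetamine knockout mice, the reverse of the axonemal genes, with a knockout against control value of -0.75 ± 0.196 (SE, adjusted p = 0.220 by edgeR). A list written for the primary cilium, the immotile cilium of neurons and glia, had a median of 0.03 with 8 of 24 below 0 in control mice. Many of its genes, such as Ift88 and Kif3a, are not particular to that cilium, so the list does not set immotile against motile cilia.

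Most of the other markers of ependymal cells had lower values too, and none was called. In control mice 8 of 9 tested were below 0 after amphetamine with a median of -0.50. Tmem212 went from 2.70 ± 0.425 to 1.29 ± 0.484 CPM (SD, n = 5 each), a log2 fold change of -1.06 (adjusted p = 0.20 by edgeR), Fam216b had -0.88, Ccdc153 -0.64 and the secreted chemerin gene Rarres2 -0.50. Vim and S100a6, which other glia also express, had -0.05 and 0.16. The list's median r with Foxj1 was 0.717, and its summed level lay between 67.3 and 84.7 CPM in control mice given saline and between 57.9 and 72.6 CPM in those given amphetamine. Vim, whose r was -0.18, made up 38.7 of the mean sum of 75.8 CPM in saline control mice, so the sums rest largely on it. The sums were 57.5 to 99.6 CPM in knockout mice given saline and 69.7 to 90.6 CPM in those given amphetamine, so the groups overlap. In knockout mice the median of these markers after amphetamine was -0.24.

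Markers of tissue around the striatum also differed between the groups. Pallidal and septal neuron markers were below 0 for 11 of 11 in control mice after amphetamine (median -0.56), with summed levels of 357 to 538 CPM after saline and 206 to 397 CPM after amphetamine. Cortical neuron markers were above 0 for 11 of 12 (median 0.64) and striatal projection neuron markers for 13 of 14 (median 0.46). Choroid plexus markers, from the tissue that floats in the ventricle beside the ependyma, were below 0 for 9 of 13 (median -0.50), with 57.2 to 85.7 CPM after saline and 36.9 to 83.9 CPM after amphetamine. Markers of subventricular progenitors, which lie just under the ependyma, were below 0 for 10 of 10 (median -0.22) and those of tanycytes for 5 of 8 (median -0.07). The part of these lists in the cilium gene result was not tested.

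**Figure D5:**
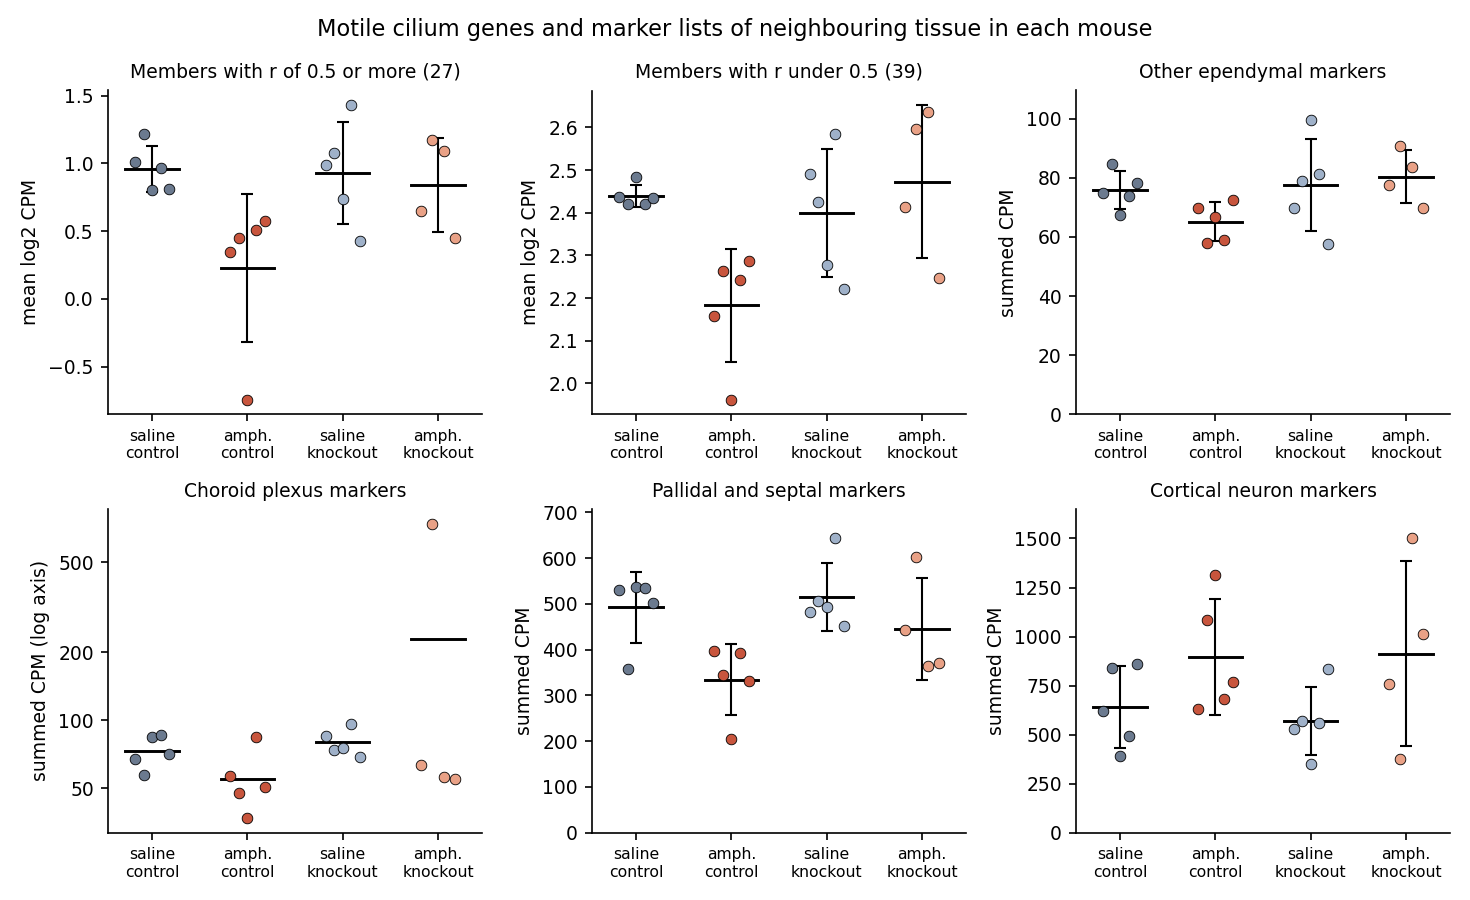
Each point is 1 mouse, by group, with lines at group means and whiskers of SD, which the choroid plexus panel on its log axis leaves out. Upper row: mean log2 CPM of the 27 members with r of 0.5 or more, of the 39 with less, and summed CPM of other ependymal markers. Vim is the largest part of that sum. Lower row: summed CPM of choroid plexus, pallidal and septal, and cortical neuron markers. Amphetamine control mouse 3 is lowest in the first panel (-0.74) and amphetamine knockout mouse 2 highest for choroid plexus (739 CPM).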

How the data were processed

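Striatal RNA of 19 mice was sequenced by the authors, who deposited counts of reads per gene (49592 genes) for each mouse and 3 comparison tables. The submitters' processing notes name the build GRCm39 and the tools STAR 2.6.0c, HTSeq 0.6.1p2, DESeq2 1.26.0s and R 3.6.1, with FastQC 0.11.5 and Trim Galore 0.5.0 besides. The annotation release and strand setting were not given in the sources used. The deposited tables also hold FPKM values per mouse, log2 fold changes, p-values and a mean normalized signal per gene, all computed by the authors; that signal was not used. Per the file headers the tables name 22901 genes, which were joined to the counts by gene identifier.

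Counts were scaled by TMM and filtered with filterByExpr (21513 genes kept), and 4 group means were fitted over all 19 libraries with the robust quasi-likelihood test of edgeR 4.0.16 (R 4.3.3). P-values were adjusted over all genes tested by Benjamini-Hochberg, and calls were made at adjusted values under 0.05. The fit was tested on simulated data. Alternatives were DESeq2 1.42.0, limma 3.58.1 (voom), other filters and scalings, the compared groups alone, a replicate block, each library left out, and, chosen after seeing the data, 5 libraries left out and likeness without amphetamine control mouse 3. Gene length is the ratio of CPM to the authors' FPKM, also added after seeing the data. Over all pairs of libraries the lowest chi-square per degree of freedom was 11.2, so no pair differed by sampling noise alone. That value does not show that libraries come from separate mice. Each counts as 1 replicate because the labels give it as 1 mouse.

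The members, roles and marker lists were chosen with earlier results of these data known. The rule for named genes took Foxj1, all Tekt, Rsph, Dnai and Dnah members, the 8 Cfap members with the highest mean CPM, the 3 members with the smallest p in each comparison, the 5 most and 5 least like Foxj1, every member called by edgeR, and of the other cilium lists the 3 smallest p. Other genes were named after their values were seen. Promoters came from RefSeq (GRCm38.p6). A further amphetamine knockout library, numbered 7, was not analysed here, and the authors' comparison of knockout mice also left it out. The saline knockout library of that number, mouse 2, was analysed.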

Additional observations from a re-analysis of the deposited data

Results flagged for a closer look

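Of 40 sets of values tested, each 1 group's mice for 1 gene or mean, 4 held a mouse whose gap to its nearest neighbour, divided by the range of the group, exceeded Dixon's critical value (0.829 for 4 mice, 0.710 for 5). The 4 ratios, in the order given here, were 0.967, 0.778, 0.768 and 0.718. Chance gives about 1 in 20. Foxj1 stood at 14.6 CPM in amphetamine knockout mouse 2, where the other 3 mice of the group lay between 9.8 and 9.96 CPM. Cfap161, a microtubule inner protein, stood at 0.428 CPM in amphetamine control mouse 3, where the other 4 lay between 1.25 and 1.49 CPM. The mean log2 CPM over all members was 0.876 in that same mouse. Cfap36 stood at 146 CPM in saline knockout mouse 3, against 111 to 121 CPM in the other 4.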

How the results depend on the processing

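The number of members called depended on the method, while the direction of the medians that were away from 0 did not. edgeR called 0 members in each of the 5 comparisons. For amphetamine in control mice DESeq2 called 5, the fit of the 2 groups alone 2, and the fit without the 5 libraries that stand apart 1. DESeq2 called 1 for amphetamine in knockout mice and 1 for knockout against control after amphetamine. The causes were not tested. Without the 5 libraries the median log2 fold change moved to -0.27 for amphetamine in knockout mice, 0.092 for knockout against control after amphetamine and 0.10 for the difference of responses. Leaving out each library in turn called 0 members, and the medians ran from -0.54 to -0.37 for amphetamine in control mice, -0.10 to 0.06 in knockout mice, -0.06 to 0.07 for knockout against control under saline, 0.34 to 0.58 after amphetamine, and 0.35 to 0.54 for the difference of responses. Mice with the same number in their titles did not deviate together (correlations from -0.35 to 0.15 over 27 pairs). The library numbers, which differ from the title numbers in knockout mice, were not compared in this way. Low correlations cannot exclude a shared batch, so whether numbers pair mice was not settled. With a replicate block by mouse number 0 members were called, with 1 gene called in all for amphetamine in control mice, 5 in knockout mice and 0 in the other 3 comparisons, and the medians were -0.48, -0.03, 0.05, 0.45 and 0.40 in the same order. With a block by library number they were -0.49 and -0.01 for amphetamine in control and knockout mice and 0.48 for the difference, and the other 2 comparisons could not be fitted. Of 6450 values for named members under alternatives, 6320 kept their call and stayed within the spread, 122 moved by more, and 8 became called. Since the main fit called 0 members, keeping a call says little. Without the 5 libraries, 14 of 49 named members changed sign for amphetamine in knockout mice and 3 for amphetamine in control mice. Leaving out saline knockout mouse 3 alone changed 11 signs for amphetamine in knockout mice. Tekt3, with 0 to 21 counts a library, left the filter in some fits.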
